A study of Mus musculus with 14 samples.

Results

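Liver and pancreas are both glands that grow out of the embryonic foregut, and the transcripts of mouse liver were set here against those of mouse pancreas. The comparison rests on 4 of the 14 libraries of the series, namely a female and a male library titled liver and a female and a male library titled pancreas. The animals were of strain C57BL6, with no treatment or genotype named in the labels, and their ages are not given there. By their titles the female liver sample was the right lobe and the male one the left lobe. Both library codes in those titles end in LL, however, so the lobes are uncertain. Sex, library and any difference of lobe lie together inside the spread between the 2 liver libraries. The labels do not say whether 1 or several animals gave each RNA, so a p-value here measures the spread between these libraries. In all, 15901 genes had a count in the 4 libraries and 7836 had enough counts to be tested.

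Hepatocytes, the main cells of the liver, release most plasma proteins into the blood, make bile, and handle sugars, lipids, amino acids, ammonia and foreign compounds. Acinar cells, which make up most of the pancreas, produce digestive enzymes as inactive zymogens, pack them into granules and release them into the duct when the gut hormone cholecystokinin or the vagus nerve calls for it. Both kinds of cell are rich in rough endoplasmic reticulum (ER), the compartment in which secreted proteins enter the secretory route, fold and receive sugars. The same early factors, among them the Foxa proteins and Gata4, act in both organs during development, whereas Ptf1a with its partner Rbpjl drives acinar genes and Hnf4a with Cebpa drives hepatocyte genes.

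Each count is a 20-base tag beginning at a DpnII site, GATC, near the 3′ end of a transcript. The tags that carry most of the contrast are shown first, because they are what was counted. The leading tags of 3 liver transcripts (the main plasma protein, a lipoprotein and a protease inhibitor), 3 pancreatic enzymes and a pair of near-identical trypsinogens follow, with the DpnII site in capitals.
Alb: GATCcctggtggaaaggcgg
Apoa1: GATCgacaaggccagcgaga
Serpina1a: GATCccacacataaatgacc
Amy2a: GATCagaatgactggattgg
Ctrb1: GATCttggaagccaactaag
Pnlip: GATCacagtggaaagaaatg
Prss2: GATCtgtgttggcttcctgg
Try5: GATCtgtgttggcttcctag
The Alb tag was counted 87480 times in female liver, 96930 times in male liver, 0 times in female pancreas and 11 times in male pancreas. The Amy2a tag was counted 16 and 9 times in the liver libraries and 938318 and 643001 times in the pancreas libraries. The trypsinogen tags of Prss2 and Try5 differ in 1 base, so a read error in one gives the other and the split between these 2 genes is uncertain. Their leading tags were counted 226613 and 278313 times (Prss2) and 176656 and 184390 times (Try5) in pancreas, against at most 8 times in a liver library.

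The marker of each organ bore out the library labels. Albumin (Alb), the main carrier protein of plasma, had 46078 CPM in female liver, 30610.5 in male liver, 28.9 in female pancreas and 47.5 in male pancreas, where CPM are counts scaled to a total of 1000000 gene counts per library. Amy2a, the pancreatic amylase that breaks down starch, had 10.4 and 4.54 CPM in the liver libraries and 343489 and 246815 CPM in the pancreas libraries. The groups stood apart for both genes, by a log2 fold of 6.79 ± 0.62 (SE, n = 2 libraries per tissue) for Alb and -18.42 ± 1.43 for Amy2a, always liver over pancreas (adjusted p = 2.53e-07 and 4.35e-08, edgeR's quasi-likelihood test with Benjamini-Hochberg adjustment). Most Alb counts in pancreas came from tags with a run of at least 10 A. Without such tags, which held 0.73 and 0.759% of gene counts in liver and 0.137 and 0.202% in pancreas, Alb fell from 80 to 0 counts in female pancreas and from 126 to 15 in male pancreas, and its log2 fold was 10.53.

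The libraries held 2466184 (female) and 3794733 (male) counts in liver and 3003859 and 2915699 in pancreas, of which 81.7, 87.2, 92.1 and 90.9% fell on genes in the sense direction. Pancreas RNA was dominated by a few transcripts. The 10 most counted genes held 80.4 and 80.2% of gene counts in the pancreas libraries, against 26.6% in female liver and 39.3% in male liver. Amy2a, Ctrb1 and Prss2 alone made up over 50% of each pancreas library, whereas 81 genes were needed for that share in female liver and 25 in male liver. Beyond these genes less depth was left, and 10846 and 9519 genes were detected in pancreas against 13708 and 13931 in liver. Mitochondrial transcripts took 12.6 and 10.9% of gene counts in liver and 0.832 and 0.746% in pancreas.

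**Figure D1:**
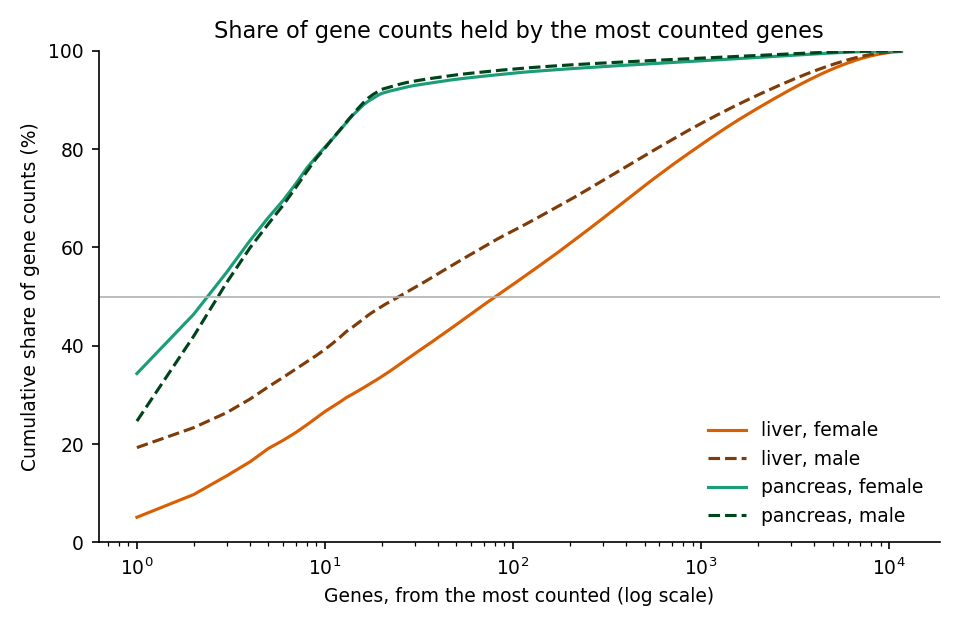
Cumulative share of gene counts (%, vertical axis) against the number of genes taken from the most counted down (horizontal axis, log scale), 1 line per library, with the grey line at 50%. Both pancreas lines pass 80% at 10 genes, where female liver stands at 26.6% and male liver at 39.3%.

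Because each count is a share of a fixed total, the enzymes of the pancreas lower the CPM of every other gene there. The fold changes were therefore scaled with TMM factors, which set the bulk of genes level between tissues, and the median log2 fold of all tested genes was 0.22. With library totals as the scale the median was 3.28, so that a typical gene had a CPM several times higher in liver, and the scalings differ by 3.05 on the log2 scale. A gene called higher in pancreas is thus one that stands out against the bulk of genes, and it can have a lower CPM in pancreas than in liver. In whole tissue, fewer cells of a type and less RNA per cell cannot be told apart.

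With TMM scaling, 1611 of 7836 genes (20.6%) were called higher in liver and 1064 (13.6%) higher in pancreas, where a call asks for a fold of at least 2 and an adjusted p under 0.05. In total 34.1% of genes were called. The liver genes were many and of middling level, with 623 above 100 CPM in liver and 7 above 10000, and a median fold of 11.2. The pancreas genes included 108 above 100 CPM in pancreas and 17 above 10000, with a median fold of 3.81, and 99 of them differed by at least 100-fold against 450 of the liver genes. Genes called higher in pancreas held 96.4% of pancreas counts and 5.9% of liver counts. Genes called higher in liver held 67% of liver counts and 0.562% of pancreas counts. Of the pancreas genes 234 were also below 0 with library totals, and 830 turned above 0. Among liver genes 432 had no count in either pancreas library, and among pancreas genes 43 had none in either liver library. Across the 7836 genes, Spearman's rho was 0.921 between the liver libraries, 0.85 between the pancreas libraries and 0.374 to 0.392 between tissues, a description over genes that share libraries and depth.

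**Figure D2:**
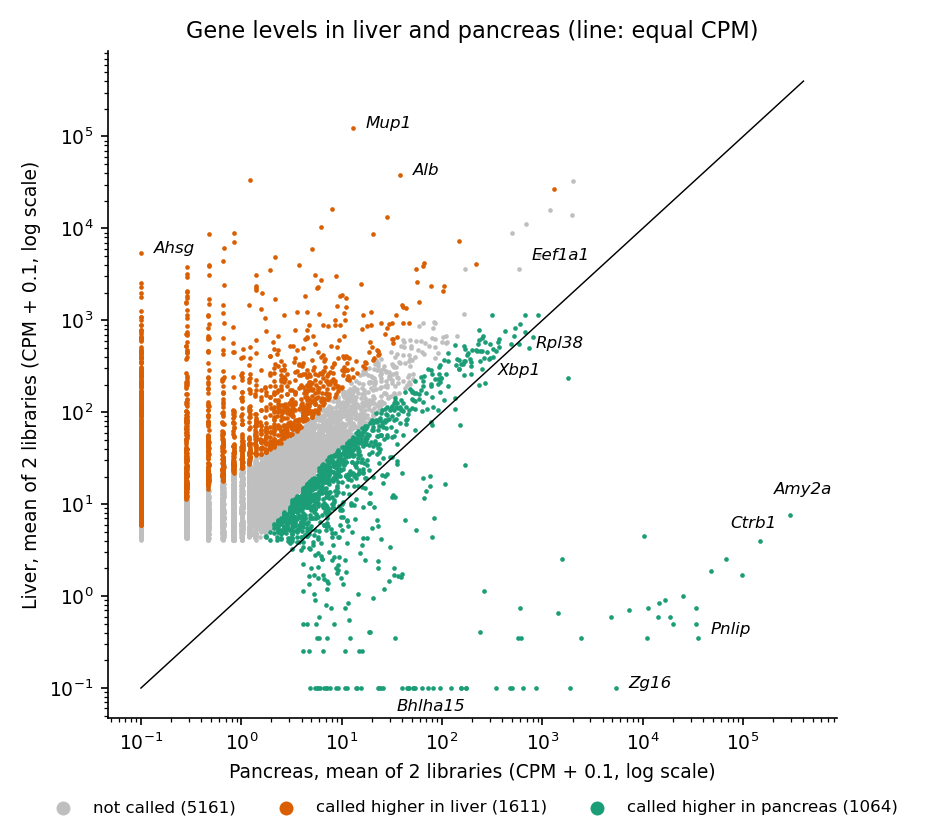
Mean CPM of the 2 liver libraries (vertical axis) against that of the 2 pancreas libraries (horizontal axis) for 7836 genes, both on log scales with 0.1 added, coloured by the TMM-scaled call, with the line at equal CPM. The digestive enzymes form a group at the lower right, and most genes called higher in pancreas lie above the line because their CPM was higher in liver.

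Most tested genes of the proteins that liver secretes into plasma were called higher in liver. Of 28 tested plasma carrier proteins and protease inhibitors 27 were called higher in liver (none in pancreas), with a median log2 fold of 7.73 against 0.22 for all genes. All 17 tested coagulation factors, all 19 tested complement components and 13 of 15 apolipoproteins and lipoprotein assembly genes were also called higher in liver. Their median log2 folds were 10.26, 7.59 and 7.98. Of all genes 20.6% were called higher in liver. The shares are not alike. In the lists, in the order named, 6, 8, 9 and 5 tested genes had no pancreas count. These passed the count filter through liver alone, so only a liver call was open to them. Serpina1a, the inhibitor of neutrophil elastase, had 26876 and 40435 CPM in the liver libraries and 0.362 and 1.89 CPM in pancreas. Ahsg, the mineral-binding plasma protein fetuin A, had 6742 and 4117 CPM in liver and no count in pancreas, which makes it at least 551-fold higher in liver (TMM-scaled means, with 3 counts in each pancreas library as the floor). Both genes thus gave liver libraries that lay far above either pancreas library.

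Fibrinogen, the clot-forming protein, is built from 3 chains, and these moved together. Fgb had 3838 and 2094 CPM in liver, Fga 2341 and 1740.5, and Fgg 2399.7 and 1742, and each had 0 counts in female pancreas and 0.377 CPM in male pancreas. Their log2 folds were 10.75 ± 0.73, 10.24 ± 0.69 and 10.26 ± 0.69. Prothrombin (F2) reached 2481 and 1497 CPM in liver against 0 and 3.02 in pancreas. The coagulation factor with the smallest fold was protein S (Pros1), a cofactor of the anticoagulant protein C, with 66.5 and 60.5 CPM in liver, 1.81 and 2.26 in pancreas and a log2 fold of 1.86 ± 0.45. For complement, C8g, a chain of the pore-forming complex, had 1381 and 776 CPM in liver and no count in pancreas (at least 109-fold). C3, on which the complement pathways converge, had 2179 and 1311 CPM in liver and 13.4 and 8.67 in pancreas, a log2 fold of 4.19 ± 0.40. C3 thus stayed measurable in both pancreas libraries, unlike C8g.

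Among lipoprotein genes, Apoa1, the main protein of high-density lipoprotein, had 12977 and 19248 CPM in liver and 11.6 and 4.15 in pancreas. Apoe, which binds lipoprotein remnants to their receptors, had 14227 and 12433 CPM in liver and 37.6 and 18.9 in pancreas. Apoh, a phospholipid-binding plasma protein, had 3108 and 1538 CPM in liver, none in pancreas, and was at least 233-fold higher in liver. Apoa4 (167 and 40.8 CPM in liver, 7.59 and 0 in pancreas, adjusted p = 0.0963, edgeR's quasi-likelihood test with Benjamini-Hochberg adjustment) and Pltp (42.2 and 27.8 against 1.45 and 2.26 CPM, adjusted p = 0.103) were not called. In CPM both liver libraries were above both pancreas libraries for Apoa4 and Pltp, as for 95.4% of all tested genes, and after TMM scaling the groups overlapped for Apoa4 and not for Pltp. Apoa4 was called without male liver or without female pancreas (log2 folds of 2.27 and 10.46), with sex as a block (1.83) and with no filter on low counts (2.04).

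The metabolic enzymes of liver followed the same direction. All 14 tested genes of gluconeogenesis and glycogen, all 20 of fatty acid oxidation and ketogenesis, 23 of 27 of amino acid breakdown, 20 of 24 of fatty acid and sterol synthesis and 7 of 8 of the urea cycle were called higher in liver, and none of these lists had a gene called higher in pancreas. Their median log2 folds were 4.99, 2.76, 5.48, 3.27 and 4.76. Of all genes 20.6% were called higher in liver. In the same order, 2, 1, 6, 0 and 1 tested genes had no pancreas count. These passed the count filter through liver alone, so only a liver call was open to them. Cps1, which fixes ammonia in the first step of the urea cycle, had 2672 and 1331 CPM in liver and no count in pancreas (at least 201-fold). Tdo2, which opens the ring of tryptophan, had 2843 and 2299.9 CPM in liver and none in pancreas (at least 265-fold). Pck1, which commits oxaloacetate to glucose synthesis, had 1838 and 2836 CPM in liver against 1.08 and 1.51 in pancreas.

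Not all metabolic enzymes separated the organs as widely. Cbs, which begins the conversion of homocysteine to cysteine, had 745 and 412 CPM in liver and 123 and 102 in pancreas, and was not called (log2 fold -0.78 ± 0.34, adjusted p = 0.09, edgeR's quasi-likelihood test with Benjamini-Hochberg adjustment). On library totals the Cbs log2 fold was 2.36. Arg1, the urea cycle arginase, was counted at only 11.9 and 9.07 CPM in liver, against 0.362 and 0 in pancreas. It was not called (adjusted p = 0.0596, edgeR's quasi-likelihood test with Benjamini-Hochberg adjustment). Arg1 was called higher in liver on library totals (log2 fold 5.49) and with limma voom (1.94). It was also called with no filter (3.06) and with totals without genes over 1% of a library (2.96). Fabp1, the abundant fatty-acid-binding protein of hepatocytes, was counted at 3.47 and 0.605 CPM in liver and was too low to test. Both are known as abundant transcripts of hepatocytes, and the cause of their low counts was not tested.

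Genes of bile acids and of the oxidation of foreign compounds often had no count in pancreas. All 15 tested genes of bile acid synthesis and transport were called higher in liver (median log2 fold 8.31), 9 of them with no count in pancreas. All 22 tested cytochrome P450 genes were called higher in liver (median 8.2), 10 of them with no count in pancreas. Of all genes 20.6% were called higher in liver. The 9 and 10 genes without a pancreas count passed the count filter through liver alone, so only a liver call was open to them. Cyp2e1, an ethanol-oxidizing P450, had 15789.7 and 5102 CPM in liver and 3.98 and 8.3 in pancreas. Cyp2c29 had 2103 and 1462 CPM in liver and none in pancreas, at least 182-fold. Abcb11, the pump that exports bile salts, had 311 and 208 CPM in liver and none in pancreas (at least 26.5-fold). Cyp7a1, the rate-limiting enzyme of bile acid synthesis, stood at a low 16.9 and 9.98 CPM in liver with no count in pancreas, so its bound was only 1.36-fold although it was called (adjusted p = 0.00808, edgeR's quasi-likelihood test with Benjamini-Hochberg adjustment).

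Conjugating enzymes attach glutathione, glucuronic acid or sulfate. Of 22 tested, 18 (81.8%) were called higher in liver and 1 (4.55%) in pancreas, against 20.6 and 13.6% of all genes. The exception was Gstm2, a glutathione transferase, with 54.6 and 36 CPM in liver and 33.6 and 37.3 in pancreas, so its call (log2 fold -2.80 ± 0.35) turned to 0.34 on library totals. Among iron genes, 6 of 10 (60%) were called higher in liver and 1 (10%) in pancreas, against 20.6 and 13.6% of all genes. Of the 22 conjugating enzymes 3, and of the 10 iron genes 3, had no pancreas count and passed the count filter through liver alone. Tfr2, an iron sensor of hepatocytes, had 283 and 226 CPM in liver and no count in pancreas (at least 26.2-fold). The ferritin chains Ftl1 (4882 and 3366 against 267 and 166 CPM) and Fth1 (2194 and 2007 against 116 and 89 CPM), which store iron, were abundant in both organs and had log2 folds of 1.15 ± 0.38 and 1.26 ± 0.35. Both calls were lost without either pancreas library, and that of Ftl1 also without female liver. Without either pancreas library 3 iron genes in place of 6 were called higher in liver, and none in pancreas.

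**Figure D3:**
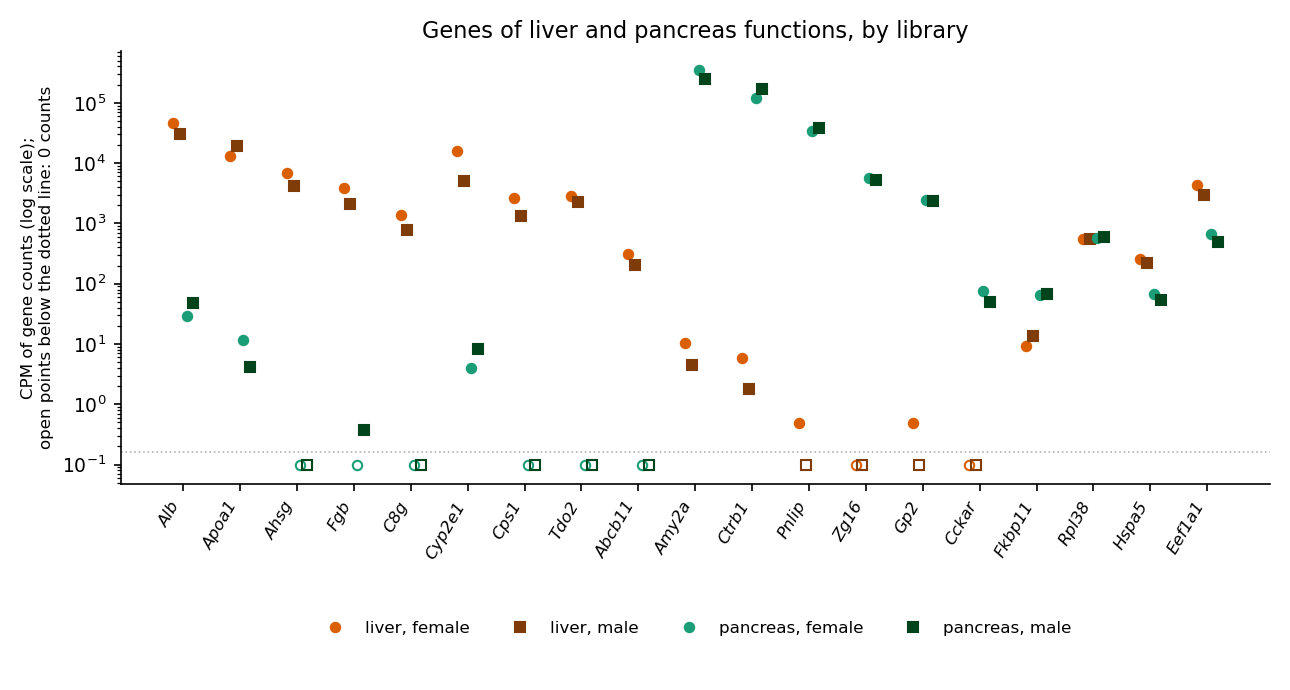
CPM (log scale) of 19 genes in the 4 libraries, circles for female and squares for male, liver in orange and pancreas in green, with open points below the dotted line for 0 counts. The hepatocyte genes from Alb to Abcb11 lie high in liver, the acinar genes from Amy2a to Fkbp11 high in pancreas, and Rpl38 lies at 549 to 600.0 CPM in all 4 libraries.

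The digestive enzymes held most of the pancreas counts and almost none of the liver counts. All 14 tested serine proteases, carboxypeptidases and their inhibitor were called higher in pancreas (median log2 fold -17.94). So were all 10 tested amylases, lipases and nucleases (median -17.68), against 13.6% of all genes. The shares are not alike. In these lists 1 and 2 tested genes had no liver count and passed the count filter through pancreas alone, so only a pancreas call was open to them. Summed, the first list held 428200 and 521500 CPM in the pancreas libraries against 28.8 and 11.5 in liver, and the second held 463300 and 371100 against 360 and 136. Ctrb1, a chymotrypsinogen, had 120205 and 172190 CPM in pancreas and 5.95 and 1.81 in liver. Pnlip, the pancreatic triglyceride lipase, had 33702 and 38256 CPM in pancreas, with 1 count in female liver and none in male liver, and its log2 fold was -20.10 ± 1.26. Clps, the colipase that anchors that lipase to fat droplets, had 35112 and 32100.4 CPM in pancreas and 1 count in each liver library.

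Cpa1, a carboxypeptidase, had 19547 and 20471 CPM in pancreas, Rnase1, the pancreatic ribonuclease, had 17109 and 20012, and Cel, the bile-salt-activated lipase, had 16878 and 16508. In liver these 3 genes had at most 0.992 CPM. Spink1, the inhibitor that guards against trypsin activated too early, had 802 and 933 CPM in pancreas and no count in liver, at least 6487-fold higher. Fold sizes this large are set by a handful of liver counts or by the floor of 3 counts, and no cause of the few enzyme counts in liver was tested.

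Amylase family members could be told apart only in part. Amy1, the salivary and liver amylase, had 344 and 130.3 CPM in liver and 1490.2 and 2086 in pancreas, a log2 fold of -6.13 ± 0.58. Its tags differed between organs, and the 3 most counted ones are shown with the DpnII site in capitals, because their counts differed between the organs in unlike ways.
Amy1 leading tag in liver: GATCtgtgaacatcgatggc
Amy1 leading tag in pancreas: GATCttgcacttgagaaaga
Amy1 tag 1 base from the Amy2a tag: GATCagaatgactggattgt
The first was counted 681 and 424 times in liver and 221 and 98 times in pancreas. The second was counted 2 and 1 times in liver and 1896 and 3718 times in pancreas. The tag 1 base from that of Amy2a was counted 0 times in liver and 1467 and 1289 times in pancreas. The log2 fold of Amy1 was -5.48 without tags 1 base from a far more abundant tag of another gene. With only the tags of the first class code of the files it was -1.09 (adjusted p = 0.0421, edgeR's quasi-likelihood test with Benjamini-Hochberg adjustment). So the size of the Amy1 difference rested on which tags were given to the gene. Its sign did not change among these 3 values, all with TMM scaling. Tags of the first class code alone were not fitted on library totals, so the sign on that scale was not tested. The leading liver tag, which is of that class, had more counts in both liver libraries than in either pancreas library.

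Of 17 tested genes of the zymogen granule and of the response to stimuli, 13 (76.5%) were called higher in pancreas and none in liver. Their median log2 fold was -13.62, and 13.6% of all genes were called higher in pancreas. The shares are not alike, because 7 of the 17 had no liver count and passed the count filter through pancreas alone. When only tags of the first class code were summed, 6 of the 11 that could be tested were called higher in pancreas. Zg16, a lectin of the granule membrane, had 5632 and 5159 CPM in pancreas and no count in liver, and Gp2, the main membrane glycoprotein of the granule, had 2459 and 2348 against 0.496 and 0. Cckar, the receptor for cholecystokinin, had 75.9 and 49.0 CPM in pancreas and no count in liver (at least 451-fold). Pdia2, a disulfide isomerase of acinar cells, had 715 and 555 CPM in pancreas and none in liver (at least 4634-fold). The general fusion proteins were different. Vamp8 (127 and 168 CPM in liver, 13.4 and 8.3 in pancreas, log2 fold 0.71 ± 0.37) and Snap23, Stx3 and Stxbp2 were not called. Vamp8 was called higher in liver without female liver (1.07) and on library totals (3.76). It was also called with no filter (1.14) and with totals without genes over 1% of a library (1.03). Vamp2 and Rab3d, which act in granule release in many cells, were called higher in pancreas with log2 folds of -1.23 and -3.93, values that became 1.89 and -0.86 on library totals.

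Of 5 tested acinar transcription factors 3 (60%) were called higher in pancreas and none in liver. Their median log2 fold was -3.55, or -0.37 on library totals. Of all genes 13.6% were called higher in pancreas. The 2 shares are not alike, because 2 of the 5 factors had no liver count and passed the count filter through pancreas alone. On that scale 2 of the 5 were called higher in liver. Bhlha15 (Mist1), which organizes the secretory cell, had 56.8 and 37.3 CPM in pancreas and none in liver (at least 339.8-fold). Rbpjl, the acinar partner of Ptf1a, had 54.6 and 37.7 CPM in pancreas and none in liver (at least 334-fold). Ptf1a itself had 5.06 and 1.89 CPM in pancreas and none in liver, too few counts to test. Xbp1, the factor of the unfolded protein response, had like levels in both organs, with 284 and 132 CPM in liver and 257 and 281 in pancreas. Its call as higher in pancreas (log2 fold -3.55 ± 0.41) was lost on library totals (-0.37). The others tested, Tcf3, an E protein that pairs with tissue factors (4.47 and 3.93 CPM in liver, 0.362 and 0.754 in pancreas), and Gata4 (10.9 and 7.56 against 2.89 and 1.13 CPM), were not called and had log2 folds of -0.16 and -0.91, or 2.8 and 2.14 on library totals. Nr5a2, a nuclear receptor known from both organs, had 3 counts in female liver and 0 in the other libraries.

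Of 17 tested liver transcription factors 11 (64.7%) were called higher in liver and none in pancreas (median log2 fold 3.17). Of all genes 20.6% were called higher in liver. Among the 17 factors 2 had no pancreas count and passed the count filter through liver alone. Hnf4a, the nuclear receptor that maintains hepatocyte genes, had 58.6 and 64.1 CPM in liver against 0 and 0.377 in pancreas (log2 fold 5.22 ± 0.80). Cebpa, a leucine zipper factor of hepatocyte metabolism, had 179 and 112 CPM against 1.81 and 1.89, and Nr1i3 (CAR), the receptor that induces drug metabolism, had 428 and 134 against 0.723 and 0.377. Creb3l3, which responds to fasting in hepatocytes, had 95.3 and 69.8 CPM in liver and no count in pancreas (at least 8.46-fold).

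The factors shared by the foregut showed smaller contrasts. Of 11 tested foregut factors, 4 (36.4%) were called higher in liver (Foxa1, Hhex, Hnf4a and Prox1), against 20.6% of all genes. The other 7 were not called, and the median log2 fold of the 11 was 0.37, or 3.41 on library totals. The 2 shares are not alike, because 2 of the 11 factors had no pancreas count and passed the count filter through liver alone. The calls of Foxa1 and Hhex were lost without female liver or without female pancreas, and that of Foxa1 also without male pancreas. With DESeq2 neither was called (adjusted p = 0.118 and 0.0781, Benjamini-Hochberg), and 2 foregut factors were called higher in liver in place of 4. With only tags of the first class code 1 of 8 was called, and Foxa1 was not called there or with sex as a block (adjusted p = 0.0555 and 0.0552, edgeR's quasi-likelihood test with Benjamini-Hochberg adjustment). Foxa2, a pioneer factor of the endoderm, had 37.2 and 12.4 CPM in liver and 5.78 and 2.26 in pancreas, a log2 fold of -0.55 ± 0.52 (adjusted p = 0.452, edgeR's quasi-likelihood test with Benjamini-Hochberg adjustment). Foxa3, Gata4 and Onecut1 had log2 folds of 0.47, -0.91 and 0.25, and none was called. All 4 factors had a higher CPM in both liver libraries than in either pancreas library, as had 95.4% of all tested genes, and on library totals their log2 folds lay between 2.14 and 3.55. Whether these factors were at equal levels or higher in liver thus depended on the scale, and a p above the threshold does not show that they were alike. Prox1, needed for hepatocyte migration out of the liver bud, had 27.8 and 13 CPM in liver and none in pancreas, a bound of 2.04-fold.

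**Figure D4:**
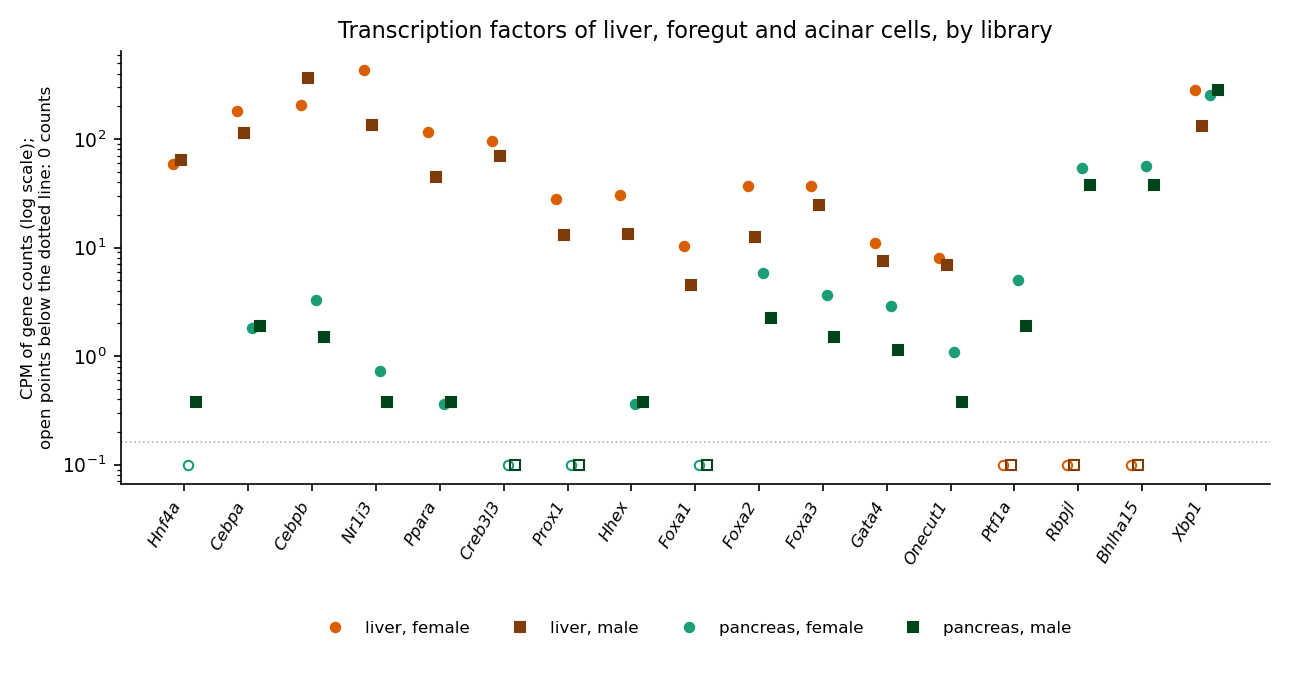
CPM (log scale) of 17 transcription factors in the 4 libraries, circles for female and squares for male, liver in orange and pancreas in green, with open points below the dotted line for 0 counts. Hnf4a to Foxa1 lie higher in liver, Foxa2 to Onecut1 lie closer together, and Ptf1a, Rbpjl and Bhlha15 have no liver count.

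The machinery of secretion was tested as lists of ER entry, ER folding and transport to the Golgi. Of 28 tested genes of ER entry 14 were called higher in pancreas and none in liver, with a median log2 fold of -1.05 that turned to 2.07 on library totals. Of 35 tested genes of ER folding and stress 16 were called higher in pancreas and 3 in liver (median -0.82, and 2.26 on library totals). Of 32 tested genes of ER to Golgi transport 13 were called higher in pancreas and 4 in liver (median -0.68, and 2.4 on library totals). Of these 32 genes 2 had no liver count and passed the count filter through pancreas alone. The shares called higher in pancreas were 50, 45.7 and 40.6%, against 13.6% of all genes. Those called higher in liver were 0, 8.57 and 12.5%, against 20.6% of all genes. On CPM the 3 lists were therefore lower in pancreas, with sums of 805 and 772 against 2479 and 2063 for ER entry, while they stood above the bulk of genes there.

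A few secretory genes were higher in pancreas on either scale. Fkbp11, a prolyl isomerase of secretory cells, had 9.43 and 13.6 CPM in liver and 65.1 and 67.1 in pancreas (log2 fold -5.57 ± 0.43, and -2.50 on library totals). Sel1l, a part of the complex that removes misfolded ER proteins, had 76.4 and 69.8 CPM in liver and 185 and 119 in pancreas (-4.13 ± 0.37, and -1.05). The cargo adaptors Tmed11 (181 and 168 CPM) and Tmed6 (66.2 and 96.9 CPM) had no count in liver, at least 1287-fold and 618-fold higher in pancreas. Derl3, which acts in the same removal pathway as Sel1l, had 0 and 2.72 CPM in liver and 32.5 and 26 in pancreas.

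The chaperones used by every secretory cell did not follow them. Hspa5 (BiP), the main ER chaperone, had 259 and 222 CPM in liver and 68.7 and 53.9 in pancreas, and its call as higher in pancreas (log2 fold -1.13 ± 0.32) turned to 1.97 on library totals. Hsp90b1, another ER chaperone, had 238 and 239 CPM in liver and 30.4 and 30.5 in pancreas and was not called (log2 fold -0.14 ± 0.33). The lectin chaperone Calr (322 and 212 against 12.3 and 15.8 CPM) and its partner Pdia3 (213 and 225 against 10.8 and 5.28 CPM) were called higher in liver with log2 folds of 1.10 and 1.70. In COPII coats, which carry cargo out of the ER, Sar1b (337 and 236 against 5.06 and 3.77 CPM), known for its role in lipoprotein export, was called higher in liver with a log2 fold of 2.90 ± 0.38.

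In a few genes the leading tag differed between the organs. P4hb, a protein disulfide isomerase, had 754 and 348 CPM in liver and 464 and 501 in pancreas, but its leading tag changed. The 2 tags are shown with the DpnII site in capitals.
P4hb leading tag in liver: GATCtatgcatcctgtcaag
P4hb leading tag in pancreas: GATCagtgctgcaccagcat
The first was counted 1346 and 1011 times in liver, which is 94.1 and 88% of the gene's counts once tags with a run of A and tags 1 base from a far more abundant tag are left out (as in all shares of tags here), and 357 and 278 times in pancreas, which is 28 and 21%. The second was counted 0 times in both liver libraries and 878 and 1019 times in pancreas, 68.9 and 76.9% of the same total there. The first tag was thus shared by both organs, and the second was counted in pancreas libraries only. Such a switch was rare. Of 171 genes with at least 100 counts in each library, 3 (1.75%) had 1 leading tag in both liver libraries and another in both pancreas libraries, namely P4hb, Amy1 and Dnajc3, the ER co-chaperone P58IPK. In Dnajc3 the change was in proportion only, from 47.3 and 51.1% in liver to 28.1 and 31.5% in pancreas for the tag GATCtcatttgctgaatgat. Between the 2 liver libraries 1 gene changed its leading tag, and between the 2 pancreas libraries 2 did. The cause of these switches was not tested.

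Genes of protein synthesis stood above the bulk in pancreas. Of 64 tested cytosolic ribosomal protein genes 56 (87.5%, against 13.6% of all genes) were called higher in pancreas and none in liver. Their median log2 fold of -1.95 turned to 1.13 on library totals. Rpl38 had 558 and 549 CPM in liver and 562 and 600.0 in pancreas, so that a log2 fold of -3.19 ± 0.41 corresponded to equal CPM. Rps2 had 1191 and 1092 CPM in liver and 323 and 299.8 in pancreas, and its log2 fold of -1.23 ± 0.36 turned to 1.87 on library totals, with no call without female liver or without either pancreas library. The Rps2 call was also lost with totals without genes over 1% of a library (-0.9), with no filter (-0.82) and with all 14 libraries (-0.77). The ribosomal proteins that were not called included Rpl4 (199 and 180.2 against 17.0 and 9.43 CPM, log2 fold 0.77 ± 0.34). Ribosomal proteins have many processed pseudogenes, which a 20-base tag may not tell from the gene. Of 29 tested translation factors 11 (37.9%, against 13.6% of all genes) were called higher in pancreas and none in liver (median -0.52, and 2.56 on library totals). Eef1a1, which brings aminoacyl-tRNA to the ribosome, had 4308 and 2963 CPM in liver and 674 and 497 in pancreas and was not called (log2 fold -0.48 ± 0.38, adjusted p = 0.365, edgeR's quasi-likelihood test with Benjamini-Hochberg adjustment), whereas Eef1g had 163 and 126 against 140.3 and 128 CPM and was called (-3.01 ± 0.35, and 0.10 on library totals).

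**Figure D5:**
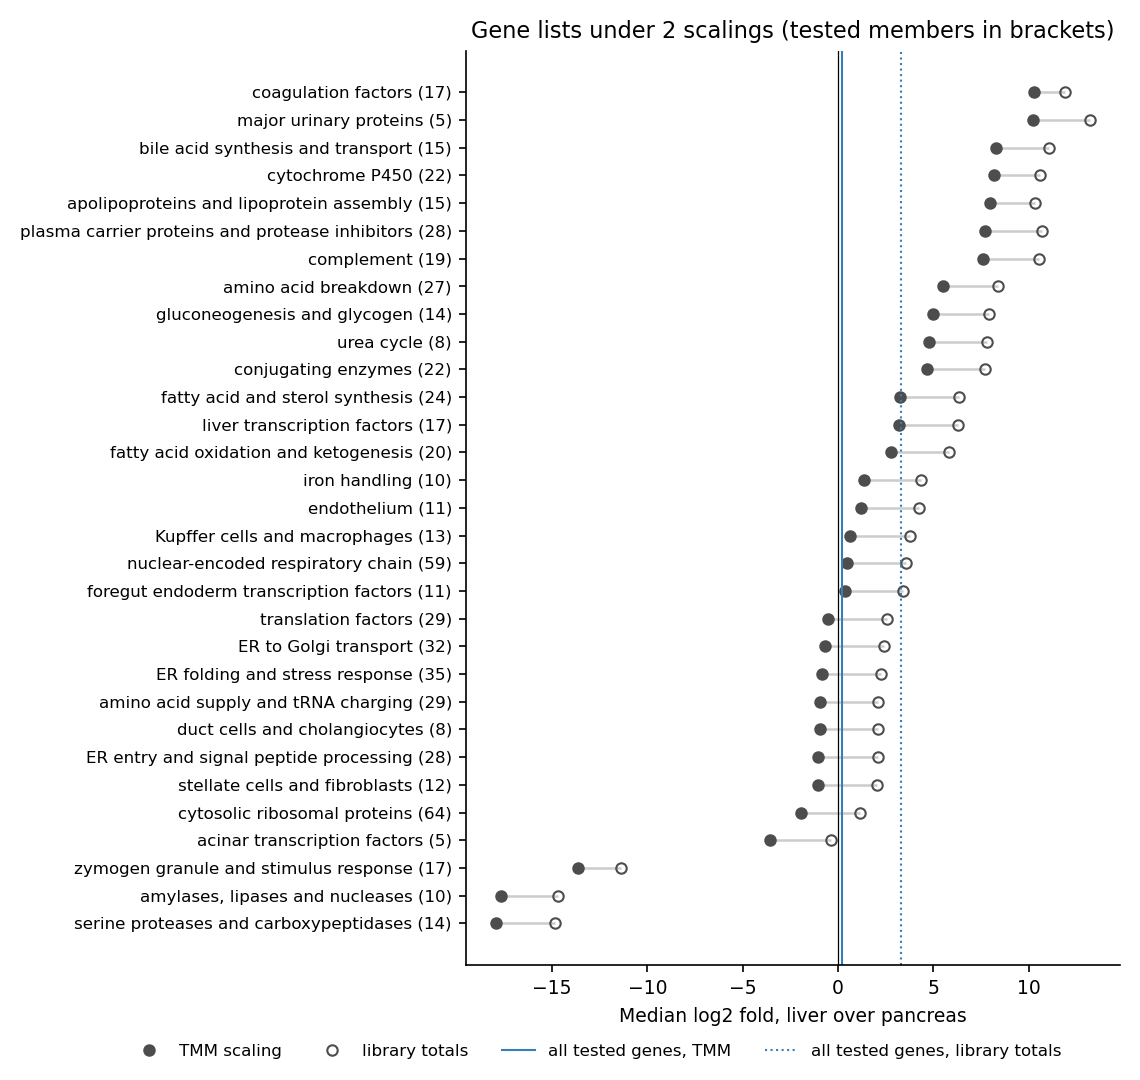
Median log2 fold, liver over pancreas (horizontal axis), of 31 gene lists with TMM scaling (filled) and library totals (open), tested members in brackets, with lines at the medians of all tested genes, 0.22 and 3.28. The hepatocyte lists lie right and the enzyme lists left of 0 on both scales, while the lists from translation factors to cytosolic ribosomal proteins change side.

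The supply of amino acids showed single genes with wide contrasts within a list of mixed direction. Of 29 tested genes of amino acid supply and tRNA charging 12 (41.4%) were called higher in pancreas and 5 (17.2%) in liver. Of all genes 13.6% were called higher in pancreas and 20.6% in liver. Of the 29 genes 1 had no liver count and 1 no pancreas count, each passing the count filter through 1 organ alone. The median log2 fold of the list was -0.94, and 2.07 on library totals. Phgdh, which begins serine synthesis, had 51.7 and 55.1 CPM in pancreas and no count in liver, at least 397-fold higher. Asns, which makes asparagine, had 0.496 and 13.3 CPM in liver and 94.7 and 70.5 in pancreas, and Slc38a5, a glutamine transporter, had 0 and 0.302 against 10.5 and 18.9. These 3 genes kept their direction on library totals. The arginine transporter Slc7a2 went the other way, with 302 and 285 CPM in liver and 2.89 and 2.26 in pancreas.

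Mitochondrial transcripts had a higher CPM in liver and mixed calls. The first subunit of cytochrome oxidase, mt-Co1, had 38128 and 27785 CPM in liver and 2147 and 1907 in pancreas, which gave a log2 fold of 0.90 ± 0.46 after TMM scaling and no call (adjusted p = 0.149, edgeR's quasi-likelihood test with Benjamini-Hochberg adjustment). After TMM scaling both liver libraries were above both pancreas libraries for mt-Co1, mt-Nd1, mt-Nd4 and mt-Cytb, as for 41.3% of all tested genes (28.3% the reverse), and none of these 4 was called. mt-Nd4 (log2 fold 1.06 ± 0.40, adjusted p = 0.0524, edgeR's quasi-likelihood test with Benjamini-Hochberg adjustment) lay near the threshold. It was called on library totals, like the other 3, and with sex as a block (1.05), limma voom (1.05), DESeq2 (1.07), totals without genes over 1% of a library (1.39), no filter (1.47) and all 14 libraries (1.52). mt-Cytb was called under the last 3 of these (1.26 to 1.37) and mt-Co1 under 2 of them (1.23 and 1.31). mt-Nd6 (38.7 and 26 CPM in liver, 7.23 and 7.54 in pancreas) was called higher in pancreas with a log2 fold of -1.001 ± 0.372, which was 2.11 on library totals. mt-Nd2 (6597 and 8070.1 against 189 and 109 CPM) and mt-Atp6 (28732 and 24889 against 1646 and 955 CPM) were called higher in liver with log2 folds of 2.58 ± 0.43 and 1.29 ± 0.46. The mt-Atp6 call was lost without male liver and without either pancreas library. Of 59 tested nuclear-encoded genes of the respiratory chain 13 were called higher in liver (22%), 1 in pancreas and 45 neither way, with a median log2 fold of 0.46. The share called higher in liver was near the 20.6% of all genes. Sdha (399 and 296 against 13.7 and 8.67 CPM) and Uqcrc2 (211 and 137 against 3.98 and 2.26 CPM) were among those called.

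Other cells of the organs left counts too, and their part in the results above was not tested. Islets of Langerhans were visible in pancreas through Gcg, the precursor of glucagon (138 and 53.2 CPM, no count in liver), and Iapp, the amylin of beta cells (78.8 and 80.3 CPM, and 4.96 and 3.63 in liver). The insulin genes were nearly absent, with 0 and 4 counts of Ins1 and 1 and 5 counts of Ins2 in the pancreas libraries. Ttr, also on the islet list, was called higher in liver, where it is a major plasma protein. For ducts, Muc1 (17.4 and 19.6 CPM in pancreas, 0 and 0.605 in liver) was called higher in pancreas on either scale. Spp1 was called higher in pancreas (log2 fold -1.95), which turned to 1.17 on library totals, and Aqp1 higher in liver (not without female pancreas). The Spp1 call was also lost with all 14 libraries (-1.5). Summed over 15 duct genes with a count, the level was 498 and 504 CPM in liver and 135 and 110 in pancreas, with Krt8 and Krt18, which hepatocytes also express, in the list.

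Macrophages of the liver, the Kupffer cells, were seen through Clec4f, a lectin that marks them, with 162 and 83.2 CPM in liver and no count in pancreas (at least 12.3-fold). In that list 5 of 13 tested genes (38.5%) were called higher in liver and 1 (Lyz2, 7.69%) in pancreas, against 20.6 and 13.6% of all genes. Fewer were called higher in liver without female liver, without either pancreas library or with DESeq2. Of the 13 tested genes 3 had no pancreas count and passed the count filter through liver alone. The sums of the list were 803 and 458 CPM in liver and 87.5 and 54.3 in pancreas. Markers of liver sinusoidal endothelium, Stab2 (34.2 and 29.3 CPM) and Clec4g (53.6 and 37.8 CPM), had no count in pancreas, while the general endothelial genes Pecam1 and Plvap were called higher in pancreas and turned to 1.31 and 1.70 on library totals. Pecam1 lost its call without any of 3 libraries (all but female liver), Plvap without male pancreas, and Lyz2 without female pancreas. All 3 genes also lost it with all 14 libraries, and Pecam1 and Lyz2 with no filter. Pecam1 lost it further with DESeq2, with only tags of the first class code and with totals without genes over 1% of a library. Of 12 tested genes on the stellate and fibroblast list 2 (16.7%) were called higher in liver and 6 (50%) in pancreas. Of all genes 20.6 and 13.6% were called in these directions. Lrat and Reln, which mark hepatic stellate cells, were called higher in liver. The collagen genes Col1a1 and Col3a1 were called higher in pancreas, with log2 folds of -2.51 and -2.20 that turned to 0.58 and 0.87. The stellate and fibroblast list summed to 561 and 347 CPM in liver and 114 and 78.8 in pancreas, and the endothelial list to 301 and 214 against 21 and 24.9. Of 11 tested endothelial genes 3 (27.3%) were called higher in liver and 2 (18.2%) in pancreas. In these lists 1 and 2 tested genes had no pancreas count and passed the count filter through liver alone.

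Blood and fat contributed unequally. Hbb-b1, beta globin, had 548 and 587 CPM in liver and 57.5 and 79.2 in pancreas and was not called (log2 fold -0.07 ± 0.36). Of 3 tested red blood cell genes 1, Alas2, was called higher in liver (33.3%, against 20.6% of all genes). Its leading tag was counted 16 times in female liver, 216 times in male liver and 0 times in pancreas. The Alas2 call was lost without male liver, without either pancreas library and with DESeq2. Of 3 tested lymphocyte genes only H2-Ab1 was called, and higher in pancreas (33.3%, against 13.6% of all genes). H2-Ab1 had a log2 fold of -1.27, or 1.81 on library totals, and is also carried by macrophages. Its call was lost without female pancreas (-0.74), with totals without genes over 1% of a library (-0.96), with no filter (-0.85) and with all 14 libraries (-0.78). The summed level of that list was 290 and 231 CPM in liver and 95.1 and 43.8 in pancreas. Its T cell marker Cd3e, a chain of the T cell receptor complex, was near 0, with at most 3 counts in any of the 4 libraries. Of 3 tested genes on the fat cell list 2 (66.7%), Cfd and Fabp4, were called higher in pancreas and 1 (33.3%), Car3, in liver. The shares of all genes were 13.6 and 20.6%. The list summed to 1962 and 3095 CPM in liver and 82.4 and 67.9 in pancreas, nearly all of it in liver from Car3, a carbonic anhydrase (1944 and 3072 CPM in liver, 14.8 and 15.8 in pancreas). Fabp4, the fatty-acid-binding protein of fat cells, had 14.4 and 16.9 CPM in liver and 14.5 and 12.1 in pancreas, and its log2 fold of -2.82 became 0.24 on library totals. Cfd (adipsin, 42.3 and 35.1 CPM in pancreas, 0 and 3.02 in liver) had a log2 fold of -7.41 ± 0.62. Retn, resistin of fat cells, had 18 and 7 counts in pancreas and none in liver. Of 2 tested muscle genes, Acta2 was called higher in pancreas (-2.02, 1.06 on library totals, and not called without male pancreas) and Tagln was not. That is 50%, against 13.6% of all genes. With only 2 or 3 tested genes per list, these shares say little about the cell types.

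The liver libraries differed widely from each other in the major urinary proteins, pheromone carriers made in liver under growth hormone and androgen control. Mup1 had 51202 CPM in female liver and 192881 in male liver, against 2.17 and 23.4 in pancreas. Mup20 (darcin) had 387 and 16898 CPM, and Mup5 had 2265 and 11892. All 5 tested members were called higher in liver (median log2 fold 10.22), against 20.6% of all genes. In each of the 5 the male value was the higher of the 2 liver values. Of the 5, 1 had no pancreas count and passed the count filter through liver alone. The Mup genes are near-identical copies whose tags may be shared, so single members are uncertain. The genes that follow were chosen for their gap after their values were seen. Cyp2b9 had 724 CPM in female and 0.605 in male liver, and the shared tag cluster of Cyp4a12a and Cyp4a12b had 0.992 and 509. Neither was tested, because only 1 liver library held enough counts. Gstp1 had 784 and 6429 CPM in liver against 178 and 164 in pancreas and was not called (log2 fold 1.43 ± 0.67). It was called higher in liver without female liver (2.33), with no filter (1.86) and on library totals (4.4). Hamp2, a relative of the iron hormone hepcidin, had 906 and 9.68 CPM in liver and 31.5 and 30.2 in pancreas, so that the liver libraries lay on both sides of pancreas, and its log2 fold ran from -4.56 without female liver to 1.65 without male liver. With 1 liver library of each sex, sex, animal and any difference of lobe cannot be told apart.

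Between the pancreas libraries the Reg family, small secreted lectins, differed widely. Reg2 had 10.8 CPM in female pancreas and 949 in male pancreas, and Reg1 had 5675 and 16788, against at most 0.992 CPM in liver. Amy2a (343489 and 246815 CPM) and Ctrb1 (120205 and 172190 CPM) lay in opposite order in the 2 libraries.

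Promoters of RefSeq, on GRCm38.p6, were read from 250 bases before to 50 bases after the start of each gene and searched on both strands for 4 short motifs, for the 50 called genes of highest mean CPM in each direction. CAAAGT, a part of the HNF4 site, was in 30% of liver promoters, 14% of pancreas promoters and 14.3% of all 27025 promoters. The 2 parts of the PTF1 site, CACCTG and TTTCCC, were in 30 and 44% of pancreas promoters, 22 and 24% of liver promoters and 20 and 25.2% of all, and both together in 12, 6 and 4.88%. TATAAA, the TATA box, was in 20% of pancreas, 24% of liver and 14.2% of all promoters. These are shares of promoters that hold a string of letters, with no test and no evidence of binding.

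The stretches of 30 bases around such matches are shown for 3 liver and 3 pancreas matches, the motif or its reverse complement in capitals, on the strand of the gene.
Alb, chr5:90460676-90460705, plus strand: ttaatgaatggaCAAAGTcttgtgcatggg
Serpina1a, chr12:103863815-103863844, minus strand: gacaccagacgcACTTTGgacacaggatgt
Ahsg, chr16:22891864-22891893, plus strand: acagcagcattgACTTTGgcagatctgttg
Prss2, chr6:41521595-41521624, plus strand: aagttcccttgtCACCTGtagctcgccatg
Prss2, chr6:41521686-41521715, plus strand: tatgtttgtgcaGGGAAAaaaaaaaatgac
Cel, chr2:28563472-28563501, minus strand: ccagcctgacctGGGAAAaaatggaccatc
The CAAAGT matches shown began 182, 213 and 139 bases before the RefSeq start of Alb, Serpina1a and Ahsg, and Ahsg held a further match 171 bases before it. In Prss2 the CACCTG match began 169 bases and the TTTCCC match shown 78 bases before the start, and the Cel match began 86 bases before it.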

How the data were processed

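Tags were counted in 14 libraries from total RNA, and the 4 of liver and pancreas were used here (the other 10 enter 1 alternative). Per the labels, cDNA was cut with DpnII and the bases next to the 3′-most site were captured with MmeI and sequenced by signature sequencing on beads. The deposited values are raw counts per 20-base tag, with a UniGene or mitochondrial assignment and a class code by the authors. For the aligner, the genome build, the UniGene build and the meaning of the codes, nothing was given in the labels or files used here. Counts of tags with codes 1 to 4 were summed per UniGene id or mitochondrial gene, and codes that mark the reverse strand were left out. Symbols came from RefSeq tables and, for a small part, from cluster titles by hand; 1405 tested genes, 3.24% of counts, had none.

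CPM are shares of gene counts. Differences were tested with edgeR 4.0.16 (TMM factors 3.31 and 2.61 in liver, 0.386 and 0.301 in pancreas, filterByExpr by tissue, quasi-likelihood F test, 2 residual degrees of freedom, R 4.3.3), tested on simulated data, with alternatives by DESeq2 1.42.0 and limma 3.58.1. A call needed an adjusted p under 0.05 (Benjamini-Hochberg) and a fold of at least 2. SE is the log2 fold over the square root of F. Counts cover counting error only, since tags carry no molecular identifiers. A fold against a tissue without counts uses a floor of 3 counts per library.

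The members and lists were chosen with earlier results of these data known. The rule for named genes took the markers, the 12 highest called genes per direction, the 6 highest abundant in both tissues (at least 100 CPM in the lower one), up to 4 members per list with the smallest adjusted p and the highest one not called, transcription factors with a count, 5 genes with groups apart but not called and the 6 with the largest ratio between libraries of a tissue (at least 500 CPM). Other genes were named after their values were seen. Some genes that the rule took, and 1 planned motif, are not reported here.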

Additional observations from a re-analysis of the deposited data

Results flagged for a closer look

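Reverse-strand tags lie outside the counts compared above and were examined because they were frequent in 1 organ and had at most 3 counts in a library of the other. In liver, reverse-strand counts reached 6973 for Hbb-b1, which is 77.4% of that gene's counts in female and 62.2% in male liver, against 0 in pancreas, where 159 and 210 sense counts were found. They reached 6867 for Alb (4.07 and 2.81% of its counts, 0 in pancreas) and 6037 for Apoa1 (8.73 and 5.26% of its counts). In pancreas they reached 20663 for Amy2a (1.3 and 1.23%), 16957 for Prss2 (3.47 and 2.83%) and 16531 for Cela2a/Ctrc, a shared cluster of an elastase and a chymotrypsin (6.19 and 5.92%). Of all counts, reverse-strand tags took 5.24 and 4.46% in liver and 2.92 and 2.84% in pancreas. The share of Hbb-b1 was far above that of the other 5 genes in their own organ.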

How the results depend on the processing

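The scale decides most. With library totals 7323 genes were called higher in liver and 160 in pancreas, and the log2 fold turned for Rpl41 (0.31), Rps29 (0.77), Rps23 (0.57), Rps2 (1.87), Rpl5 (0.2), Rpl18 (0.25), Rps9 (2.85), Eef1g (0.1), Eif4ebp1 (0.49), Eef1b2 (0.74), Eef1a1 (2.63), Sec61b (0.61), Srp54a (0.89), Dad1 (2.6), Ppib/Snx22 (0.38), Herpud1 (2.26), Cbs (2.36), Slc38a2 (2.07), Gata4 (2.14), Tcf3 (2.8), Foxa2 (2.58), H2-Ab1 (1.81), Cd74 (2.16), Lyz2 (1.71), Fabp4 (0.24), Spp1 (1.17), Krt8 (2.97), Plvap (1.7), Pecam1 (1.31), Hbb-b1 (3.05), Acta2 (1.06), Tagln (2.63), Col3a1 (0.87), Col1a1 (0.58) and Dcn (2.83). The other alternatives gave between 1177 (DESeq2) and 2249 (no filter) genes higher in liver and between 775 (totals without the 31 genes over 1% of a library) and 1198 (no filter) higher in pancreas. Labels carry no replicate numbers, so pairing by sex only shares a number: sex as a replicate block gave 1655 and 1107 calls, and Hamp2 turned to -1.15. Leaving out 1 library gave 1239 to 1550 and 809 to 1102 calls; the log2 fold of Hamp2 ran from -4.56 (without female liver) to 1.65 and that of Tagln from -1.14 to 7.79 (without female pancreas), and the lone library is then assumed to vary like the others. Tags with a run of A and tags 1 base from a far more abundant tag were left out as alternatives chosen after seeing the data (1609 and 1047, and 1625 and 1068 calls). Depth limits genes near 1 CPM, where pancreas counts are few.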

Other observations

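Leaving out tags with a run of A moved the log2 fold of 11 of 7815 genes by 1 or more, chosen here by that change. Etnppl went from 3.86 to 10.4 and Pxdc1 from 5.35 to 9.6, while Ywhag went from -1.86 to 2.04 and Nfatc3 from -3.41 to 0.13. Ywhag, a 14-3-3 adaptor protein, and Nfatc3, a calcium-regulated transcription factor, thus changed sign when these tags were left out.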
